A study of Homo sapiens with 4 samples.

Results

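The genes described here are 9 genes of the matricellular and TGF-beta response, THBS1, GREM1, CCN1, CCN2, TGFBI, TGFB1, TGFB2, FN1 and ANKRD1, out of 36601 genes listed for each library. They were chosen by symbol, partly because THBS1 and GREM1 were among the genes with the lowest ratios to the control at the low doses. The ratios below therefore describe the chosen genes and carry no test. BEAS-2B cells descend from human bronchial epithelium that was made to grow without limit in culture. Cells were left without radiation (the control) or exposed to a Cs-137 gamma-ray source at 10 mGy, 100 mGy or 1 Gy, and irradiated cells were processed 30 min later. The time at which the control cells were processed is not stated in the labels or methods used. The 10 mGy and 100 mGy libraries form the low-dose group, and 1 Gy is the high dose. Each dose has 1 droplet library of polyadenylated RNA, so an effect of dose cannot be told apart from a difference between libraries, and cells of 1 library are not replicates.

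Matricellular proteins are secreted into the extracellular matrix and act mainly on cell behavior rather than as structural fibers. TGF-beta ligands are secreted in a latent form, are freed by integrins or by thrombospondin 1, and signal through receptor kinases to SMAD transcription factors, which raise the transcription of many matrix genes. Several of the same genes also answer to YAP and its TEAD partners, which respond to cell shape and density, and some are induced quickly by serum or stress. In airway epithelium these genes are known for wound repair and fibrosis.

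Droplet sequencing tags RNA by the cell it came from, with a barcode, and by the single molecule, with a unique molecular identifier (UMI). Levels are in CPM, the UMIs of a gene per 1000000 UMIs of its library. The matrices held between 11111 and 21514 barcodes and between 211752280 and 285806026 UMIs per library. Between 76 and 134 barcode sequences were shared by any pair of libraries, at most 0.864% of either. Low-UMI barcodes, whose UMI count times 3 is below the library median, made up 19.6% of barcodes in the control, 41.4% and 27.4% at 10 and 100 mGy, and 25.4% at 1 Gy. Of 9 bronchial epithelial markers, KRT7, KRT8, KRT17, KRT18 and ITGA6 passed the floor of 10 CPM, whereas KRT5 and CDH1 were at 0.049 or less in every library and EPCAM at 1.17 or less. The mesenchymal marker VIM stood between 2344 and 2702 CPM, so the cells held keratin and vimentin RNA and next to none of E-cadherin (CDH1). The 6 fibroblast markers summed to between 20.8 and 25.9 CPM, nearly all of it COL1A1, and the 4 endothelial markers to at most 0.759. Immune markers summed to between 8.52 and 11.7, mostly CD68, with CD3E and MS4A1 at 0. Epithelial markers summed to 1320 CPM in the control, 1172 and 1276 at 10 and 100 mGy, and 1206 at 1 Gy.

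The bases just upstream of the transcription start are shown for the 4 genes that hold the hexamer bound by TEAD factors, searched as CATTCC or GGAATG on both strands. The hexamer is in capitals, the sequences read from 5′ to 3′ on the strand of the gene, and each ends at the last base before the start given by RefSeq. They were taken from a table of RefSeq (GRCh38.p14) sequences, in which 8 of the 9 genes were matched by symbol, all but CCN1. RefSeq and GENCODE starts can differ, and for ANKRD1, TGFB2 and CCN2 they do, for CCN2 only slightly. The distances below thus hold for the RefSeq start alone.
CCN2: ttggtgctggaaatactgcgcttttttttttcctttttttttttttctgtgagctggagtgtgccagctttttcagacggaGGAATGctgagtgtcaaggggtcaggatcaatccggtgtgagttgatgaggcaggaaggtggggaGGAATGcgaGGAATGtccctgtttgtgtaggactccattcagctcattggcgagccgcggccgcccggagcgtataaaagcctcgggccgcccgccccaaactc
ANKRD1: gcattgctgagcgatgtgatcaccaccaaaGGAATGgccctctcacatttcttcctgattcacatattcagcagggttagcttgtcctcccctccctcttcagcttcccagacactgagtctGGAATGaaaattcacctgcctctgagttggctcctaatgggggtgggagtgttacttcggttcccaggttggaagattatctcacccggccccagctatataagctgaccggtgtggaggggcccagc
THBS1: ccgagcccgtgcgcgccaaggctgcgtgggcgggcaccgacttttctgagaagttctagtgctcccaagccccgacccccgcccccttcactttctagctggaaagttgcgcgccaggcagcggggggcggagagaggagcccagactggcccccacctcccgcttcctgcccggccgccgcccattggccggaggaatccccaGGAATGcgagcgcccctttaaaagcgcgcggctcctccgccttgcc
TGFB2: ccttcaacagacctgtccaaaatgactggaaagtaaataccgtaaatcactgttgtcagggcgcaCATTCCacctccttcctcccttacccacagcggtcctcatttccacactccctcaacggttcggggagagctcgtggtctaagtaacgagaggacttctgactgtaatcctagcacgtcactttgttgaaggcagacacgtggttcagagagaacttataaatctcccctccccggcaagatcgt
The CCN2 window lies at chr6:131951373-131951622 on the minus strand, that of ANKRD1 at chr10:90921088-90921337 on the minus strand, that of THBS1 at chr15:39580829-39581078 on the plus strand and that of TGFB2 at chr1:218345086-218345335 on the plus strand. CCN2 holds the hexamer 3 times, beginning 169, 104 and 95 bases before the start, ANKRD1 holds it at 220 and 128, THBS1 at 46 and TGFB2 at 185. Of all 35116 windows of this length in the table, 11.9% hold it. The heptamer TGANTCA, with any base at N, is looser than the AP-1 consensus, which has C or G there. It was found in ANKRD1 alone of the 8, 195 bases before the start, and in 6.57% of all windows. The match in ANKRD1 has T at N and is thus not the AP-1 consensus. The SMAD octamer GTCTAGAC was in 0 of the 8 and in 0.182% of all. A match is a run of letters and not a measured binding site.

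Most of the 9 genes had a lower level in both low-dose libraries than in the control, and a level near the control at 1 Gy. CPM were taken over all deposited barcodes. The ratio to the control uses the mean over barcodes of UMIs scaled to 10000 per barcode, and the pooled ratio uses CPM, with its exact 95% interval in parentheses. These intervals cover counting error only. A gene was called lower or higher when its ratio was over 1.2-fold from the control, the fold limit used in the study. The study also set a limit on the p-value, which was not applied here. At 10 mGy, 8 of the 9 genes were lower, where 54.4% of the 8507 genes with a mean of at least 10 CPM were, and 1 was higher, where 16.0% were. At 100 mGy, 9 of 9 were lower, against 58.9% of all genes, and 0 higher, against 13.8%. At 1 Gy, 0 of 9 were lower and 0 higher, against 1.28% and 1.54%. The median log2 ratio of the 9 genes was -0.76 and -0.87 at 10 and 100 mGy and -0.11 at 1 Gy, and that of all genes was -0.32, -0.38 and 0.00. Relative to that shift, 5 genes at each low dose were still over 1.2-fold below the median of all genes, namely THBS1, GREM1, TGFBI, TGFB2 and FN1, where 27.8% of all genes were at 10 mGy and 28.8% at 100 mGy. THBS1 and GREM1 were chosen partly for low ratios at these doses, so the low-dose counts cannot be read as an excess over all genes. At 1 Gy 0 of 9 were, against 1.36%.

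**Figure D1:**
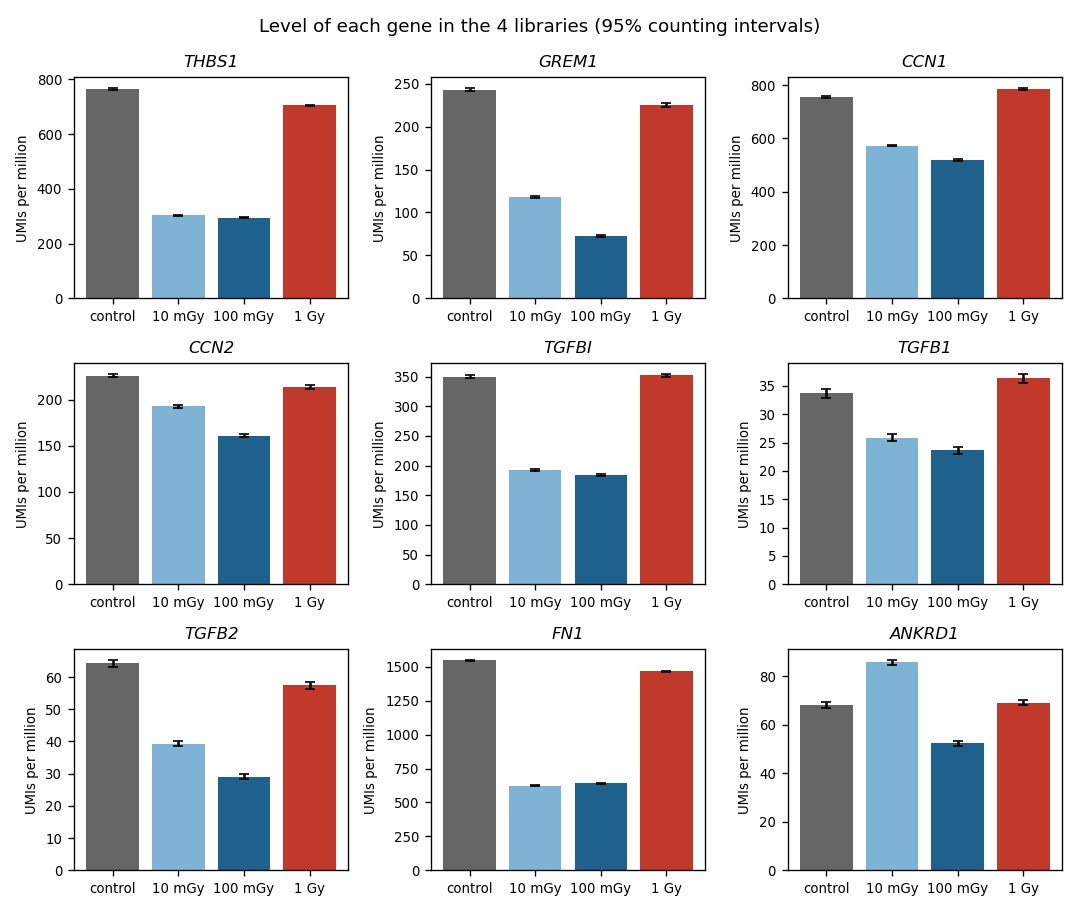
Level of each of the 9 genes in CPM (vertical axis, from 0) in the control, 10 mGy, 100 mGy and 1 Gy libraries (bars, 1 library each), with exact 95% counting intervals. THBS1 stands at 766 in the control, 303 and 294 at the low doses and 705 at 1 Gy, and ANKRD1 is highest at 10 mGy, with 85.7.

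The matricellular genes differed widely among themselves. THBS1 encodes thrombospondin 1, a secreted glycoprotein that binds cells and matrix and can release TGF-beta from its latent form, and lies on chromosome 15 from 39581079 to 39599466 (GRCh38, GENCODE 29). It had 766 CPM in the control, 303 and 294 at 10 and 100 mGy, and 705 at 1 Gy. The control and 1 Gy libraries were thus far above both low-dose libraries. The ratio to the control was 0.345 at 10 mGy, with a pooled ratio of 0.396 (0.393 to 0.399), and 0.380 at 100 mGy, with 0.384 (0.381 to 0.388). At 1 Gy the ratio was 0.857, with a pooled ratio of 0.920 (0.914 to 0.927). Counted from the lowest ratio, for which it was chosen, it stood at places 23 and 96 of the 8507 genes at 10 and 100 mGy, and at place 225 at 1 Gy.

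The annotated RNA AC037198.1 (ENSG00000276107), within an intron of THBS1 and on the same strand, was lower still. It was looked up after its values were seen, because it overlaps THBS1. It had 5714 UMIs in the control, 1549 and 1091 at 10 and 100 mGy, and 4536 at 1 Gy. Its ratio to the control was 0.172 at 10 mGy and 0.168 at 100 mGy, the second lowest of the 8507 genes that passed the floor at both doses, and 0.749 at 1 Gy. With 5.42 and 4.46 CPM at 10 and 100 mGy it passed the floor only through the control and 1 Gy libraries, at 26.9 and 21.4, so its place is in part set by the floor. Like THBS1, it was far lower in both low-dose libraries than in the others. Reads from an intron of THBS1 cannot be told apart from a separate RNA at this place. Whether the counting used the strand is not given in the sources used here, so genes that overlap a member on the other strand, as at THBS1, GREM1, CCN2 and TGFB1, leave its count uncertain. Several of these were less low than AC037198.1. At 10 and 100 mGy, AC037198.2 at THBS1 had ratios of 0.345 and 0.391, and FSIP1, also there, 0.922 and 0.777. AC090877.2 at GREM1 had 0.738 and 0.584. At TGFB1, HNRNPUL1 had 0.596 and 0.633, CCDC97 0.759 and 0.783, and TMEM91 0.844 and 1.01. Only HNRNPUL1 and CCDC97 of these passed the floor.

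CCN1 and CCN2 encode the closely related matricellular proteins formerly called CYR61 and CTGF, which bind integrins and growth factors. CCN1, on chromosome 1 from 85580761 to 85583962, had 757 CPM in the control, 573 and 519.6 at 10 and 100 mGy, and 787 at 1 Gy. CCN2, on chromosome 6 from 131948176 to 131951373, had 226, 193, 161 and 214. Both genes were lowest at 100 mGy, and CCN1 was slightly above the control at 1 Gy whereas CCN2 was slightly below it. For CCN1 the ratio was 0.779 and 0.702 at 10 and 100 mGy, and 1.03 at 1 Gy. For CCN2 it was 0.803, 0.735 and 0.924, though at 10 mGy the log2 ratio was 0.00 when libraries were scaled by the median ratio over genes. These ratios lie close to the median of all genes at the low doses, with CCN1 0.04 and 0.13 below it on the log2 scale at 10 mGy and 100 mGy, and CCN2 0.01 above and 0.07 below. The antisense RNA AL133346.1, which overlaps CCN2 on the other strand and was also looked up after its values were seen, had 126, 46, 22 and 181 UMIs in the order of doses, too few to pass the floor.

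Of the matrix genes, FN1 was further below the control at the low doses than TGFBI. FN1 encodes fibronectin, the matrix glycoprotein bound by integrin alpha 5 beta 1, and lies on chromosome 2 from 215360440 to 215436172. It had 1546 CPM in the control, 623 and 640.1 at 10 and 100 mGy, and 1466 at 1 Gy. The low-dose libraries were thus close to each other and far below the others. The ratio was 0.375 at 10 mGy, with a pooled ratio of 0.403 (0.400 to 0.405), and 0.408 at 100 mGy, with 0.414 (0.411 to 0.416). At 1 Gy it was 0.919, with a pooled ratio of 0.948 (0.943 to 0.953). TGFBI encodes a secreted adhesion protein named for its induction by TGF-beta, and lies on chromosome 5 from 136028895 to 136063818. It had 349.8 CPM in the control, 193 and 185 at 10 and 100 mGy, and 352 at 1 Gy, so that the control and 1 Gy were nearly equal. Its ratio was 0.590 and 0.548 at 10 and 100 mGy, and 1.01 at 1 Gy, and the pooled interval at 1 Gy, from 0.997 to 1.02, contains 1.

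The ligand genes did not share a single pattern. TGFB1, on chromosome 19 from 41301587 to 41353911, had 33.7 CPM in the control, 25.8 and 23.7 at 10 and 100 mGy, and 36.3 at 1 Gy. TGFB2, on chromosome 1 from 218346235 to 218444619, had 64.3, 39.3, 29.1 and 57.4. TGFB1 was thus above the control at 1 Gy, and TGFB2 below it. TGFB1 had a ratio of 0.708 and 0.719 at 10 and 100 mGy, and 1.03 at 1 Gy, within 0.18 of the median of all genes on the log2 scale at both low doses. TGFB2 had 0.560, 0.441 and 0.847, and stood 0.51 and 0.80 below that median at the low doses. At 1 Gy the value of TGFB2 was the lowest ratio of the 9 genes.

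GREM1 encodes gremlin 1, a secreted antagonist that binds bone morphogenetic proteins and keeps them from their receptors. It lies on chromosome 15 from 32717974 to 32745107. It had 243 CPM in the control, 118 and 72.6 at 10 and 100 mGy, and 225 at 1 Gy. The level at 100 mGy was thus well below that at 10 mGy, and both were below the other libraries. The ratio was 0.451 at 10 mGy, with a pooled ratio of 0.486 (0.479 to 0.493), and 0.307 at 100 mGy, with 0.298 (0.293 to 0.304). At 1 Gy it was 0.888. Counted from the lowest ratio, for which it was also chosen, it stood at place 20 of the 8507 genes at 100 mGy and at place 211 at 10 mGy.

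ANKRD1 encodes an ankyrin repeat protein of the nucleus and sarcomere and is a known target of YAP, and lies on chromosome 10 from 90912096 to 90921276. It had 68.1 CPM in the control, 85.7 and 52.3 at 10 and 100 mGy, and 69.1 at 1 Gy. Its low-dose libraries thus lay on opposite sides of the control, though without scaling for depth its log2 ratio at 10 mGy was -0.20, and with scaling by the median ratio over genes that at 100 mGy was -0.01. The ratio was 1.28 at 10 mGy, with a pooled ratio of 1.26 (1.23 to 1.28), 0.762 at 100 mGy, with 0.767 (0.749 to 0.786), and 1.06 at 1 Gy.

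The low-dose libraries were also set against each other, a comparison that does not use the control. At 100 mGy relative to 10 mGy, ANKRD1 was at 0.594, with a pooled ratio of 0.610 (0.597 to 0.623). GREM1 was at 0.681, with 0.614 (0.603 to 0.626), and TGFB2 at 0.789, with 0.741 (0.719 to 0.763). These 3 of the 9 genes were over 1.2-fold lower at 100 mGy, where 11.2% of all genes were, and 0 were higher, where 1.97% were. The median of all genes was at 0.965. For THBS1 the sign depended on the scale, with 1.10 in the scaled means and 0.971 (0.961 to 0.980) in the pooled counts. TGFB1 behaved likewise, with 1.02 and 0.916 (0.884 to 0.948).

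**Figure D2:**
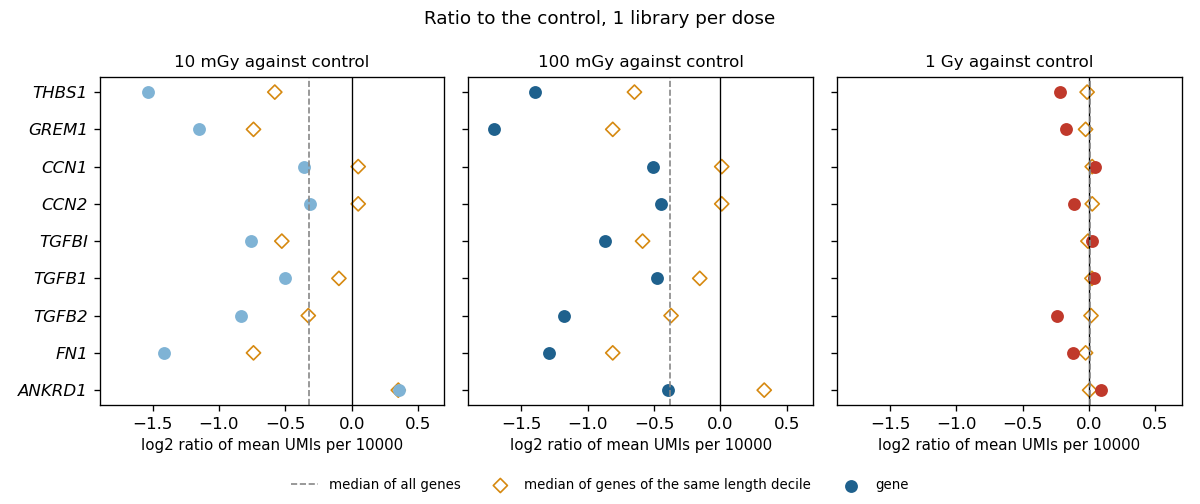
Log2 ratio of mean UMIs per 10000 to the control (horizontal axis) for each of the 9 genes (rows) at 10 mGy, 100 mGy and 1 Gy. Filled points are the genes, open diamonds the median of all genes in the same exonic length decile, and the dashed line the median of all genes. At 100 mGy every filled point lies left of its diamond, and at 1 Gy all 9 lie between -0.24 and 0.09.

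Ratios at the low doses differed by the length of the gene over the whole transcriptome, and these 9 genes span the range of lengths. Exonic length joins all exons annotated in GENCODE 29, and genes were sorted into 10 equal groups, or deciles. At 10 mGy the median log2 ratio went from 0.35 in the shortest decile to -0.74 in the longest, at 100 mGy from 0.33 to -0.81, and at 1 Gy from 0.00 to -0.03. ANKRD1, with 1979 bases, is in the shortest decile, and CCN2 (2339 bases) and CCN1 (2455 bases) are in the second. TGFB1 has 3238 bases, TGFB2 5151, TGFBI 7810 and THBS1 9158, while GREM1 (14606 bases) and FN1 (17315 bases) are in the longest decile. Set against the median of its own decile, THBS1 was lower by 0.96 on the log2 scale at 10 mGy and by 0.75 at 100 mGy. FN1 was lower by 0.68 and 0.48, GREM1 by 0.41 and 0.89, and TGFB2 by 0.51 and 0.81. TGFB1 was lower by 0.40 and 0.32, and TGFBI by 0.24 and 0.28, which at 10 mGy is within 1.2-fold of its decile. CCN1 was lower by 0.41 and 0.52 and CCN2 by 0.37 and 0.46, so these genes, near the median of all genes, were below that of genes of like length. ANKRD1 was 0.01 above its decile at 10 mGy and 0.72 below it at 100 mGy. In all, 7 of the 9 genes were over 1.2-fold below their decile at 10 mGy, where 23.1% of 8500 genes were, and 9 of 9 at 100 mGy, where 23.7% were. The choice of THBS1 and GREM1 for low ratios enters these counts too. At 1 Gy 0 of 9 were, against 1.32%. The part of transcript length in these ratios was not tested further.

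**Figure D3:**
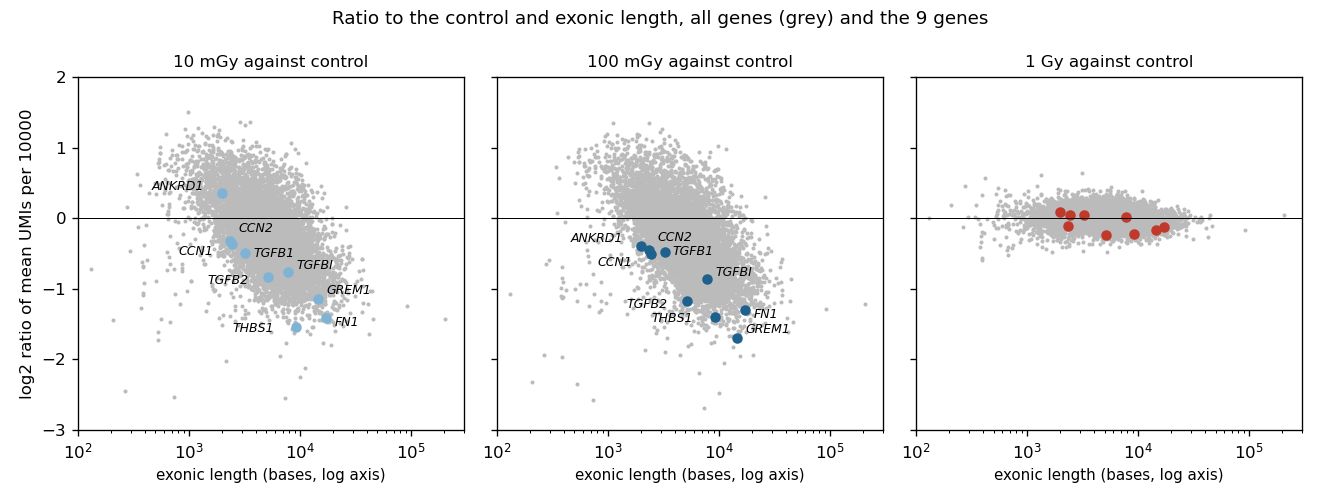
Log2 ratio of mean UMIs per 10000 to the control (vertical axis) against exonic length in bases (log axis) for all genes (grey) and the 9 genes (colored) at 10 mGy, 100 mGy and 1 Gy. At both low doses the cloud slopes down with length, with THBS1 0.96 below the median of its length decile at 10 mGy, whereas at 1 Gy the cloud is flat.

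The share of low-UMI barcodes differs between the libraries, and the level of THBS1 in them, relative to the other barcodes, also differed between libraries. The intervals of these ratios cover counting error only and narrow as UMIs rise. At 10 mGy, THBS1 had 187 CPM in low-UMI barcodes and 309.7 in the others, a ratio of 0.605 (0.583 to 0.628). In the control the same ratio was 0.979 (0.946 to 1.01), at 100 mGy 0.958 (0.913 to 1.005) and at 1 Gy 0.664 (0.639 to 0.690). TGFBI was the reverse, higher in low-UMI barcodes in each library, by 1.08 in the control, 1.29 and 1.25 at 10 and 100 mGy, and 1.11 at 1 Gy. Without the low-UMI barcodes the counts of genes lower than the control were 7 at 10 mGy (52.7% of all genes), 9 at 100 mGy (58.7%) and 0 at 1 Gy (0.846%). The part of these barcodes in the ratios over all barcodes was not tested beyond this. The gene that left the count at 10 mGy was CCN2, with a log2 ratio of -0.23.

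To compare barcodes at equal depth, each was thinned to 5000 UMIs, which kept 9060 barcodes of the control, 12561 and 14271 at 10 and 100 mGy, and 11530 at 1 Gy. THBS1 had a median of 3 UMIs per barcode in the control and at 1 Gy, and of 1 at both low doses. Its 90th percentile was 8 UMIs in the control and at 1 Gy, and 4 at the low doses, so both the middle and the upper end of the distribution were lower. FN1 had a median of 7 UMIs in the control and at 1 Gy and of 3 at the low doses. At least 1 UMI of THBS1 was found in 91.4% of barcodes in the control, 69.7% and 69.2% at 10 and 100 mGy, and 91.1% at 1 Gy. Without thinning, and over all barcodes, these shares were 92.1%, 67.0%, 73.0% and 84.5%. No other cell type is present to give the share that free RNA alone would produce. For GREM1 the thinned shares were 63.1%, 41.8%, 28.4% and 59.9%, and for TGFB1, the least abundant of the 9, 15.9%, 12.5%, 11.3% and 16.5%. ANKRD1 was found in 23.5%, 28.4%, 18.9% and 24.2%.

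**Figure D4:**
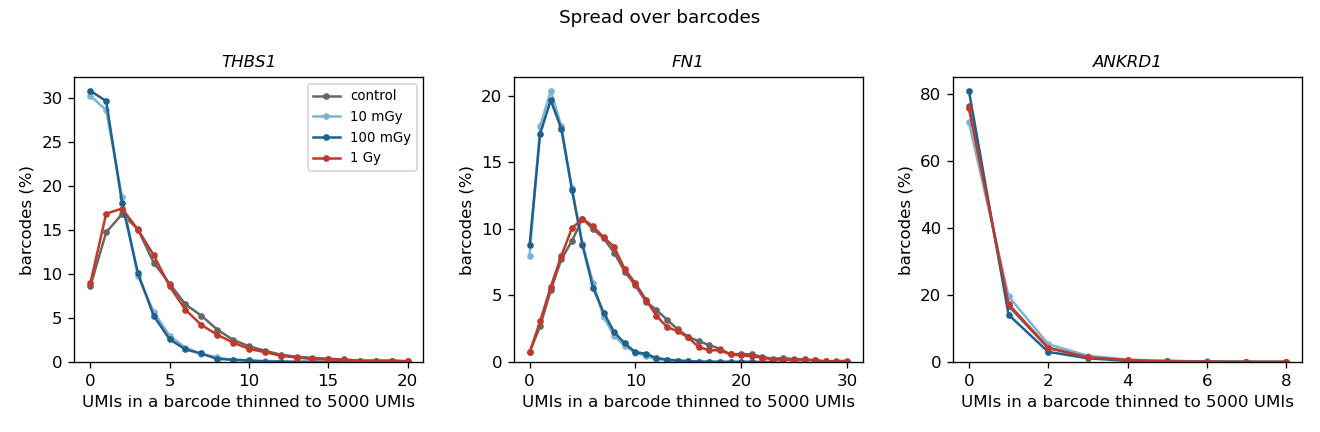
Percent of barcodes (vertical axis) by UMIs of THBS1, FN1 and ANKRD1 in barcodes thinned to 5000 UMIs (horizontal axis), with 1 line per library. For THBS1 and FN1 the curves of both low doses lie together, to the left of those of the control and 1 Gy. For ANKRD1 the curves of all 4 libraries are close.

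Spread beyond counting differed among the 9 genes. The variance over the mean of thinned UMIs, which is 1 for counting noise alone, was 3.22 for FN1 and 2.84 for THBS1 in the control, where the median of all genes was 1.02. At 10 mGy these values were 1.77 and 2.0, at 100 mGy 1.88 and 1.91, and at 1 Gy 2.83 and 2.77. The measure depends on the mean, which was also lower at the low doses. ANKRD1, in spite of its low level, had 1.89, 1.78, 1.71 and 1.90. TGFB1 had values between 0.991 and 1.03, above those of 7.66% to 77.3% of all genes in the same library. TGFB2 had values between 1.07 and 1.16, small in size but above those of 91.4% to 96.1% of all genes.

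Across barcodes of 1 library several of the genes varied together to a modest degree. Pearson's r was taken on log2(UMIs per 10000 + 1) over 8937 barcodes in the control, 12603 and 14477 at 10 and 100 mGy, and 11566 at 1 Gy, without low-UMI barcodes. These barcodes share a library and differ in depth, so r is given as a description. Among the 36 pairs, CCN1 with CCN2 had a median r of 0.322 over the 4 libraries and a range of 0.295 to 0.355. THBS1 with FN1 had 0.305 (0.257 to 0.383) and THBS1 with GREM1 0.267 (0.233 to 0.289). FN1 was also linked to CCN2, with 0.235 (0.208 to 0.306). THBS1 and CCN1 had 0.061 (0.032 to 0.076). The order depended on the barcodes used, since over all barcodes r was between 0.105 and 0.206 for THBS1 with CCN1, between 0.147 and 0.285 for CCN1 with CCN2 and between 0.234 and 0.349 for THBS1 with FN1, which was then above CCN1 with CCN2 in each library. TGFB1 had a median r between -0.022 and 0.029 with the other 8 genes. Thinning to 5000 UMIs lowered the values, to between 0.132 and 0.169 for CCN1 with CCN2, between 0.132 and 0.249 for THBS1 with FN1 and between 0.119 and 0.154 for THBS1 with GREM1, with the same sign. In the thinned control, the 1148 barcodes with at least 8 UMIs of THBS1 had 1.48 times the mean of GREM1 in the other barcodes, 1.43 times that of FN1, 1.49 times that of TGFB2, 1.58 times that of ANKRD1 and 0.997 times that of CCN1. Divided in the same way at the 90th percentile, the other 3 libraries had ratios of 1.2 to 1.33 for ANKRD1, 1.40 to 1.75 for TGFB2, 1.52 to 1.68 for GREM1, 1.3 to 1.42 for FN1 and 0.987 to 1.05 for CCN1. At exactly the lower bound of 8 UMIs lay 335 of the 1148 barcodes in the control and 359 of 1239 at 1 Gy, and at the bound of 4 UMIs lay 716 of 1568 at 10 mGy and 749 of 1605 at 100 mGy.

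**Figure D5:**
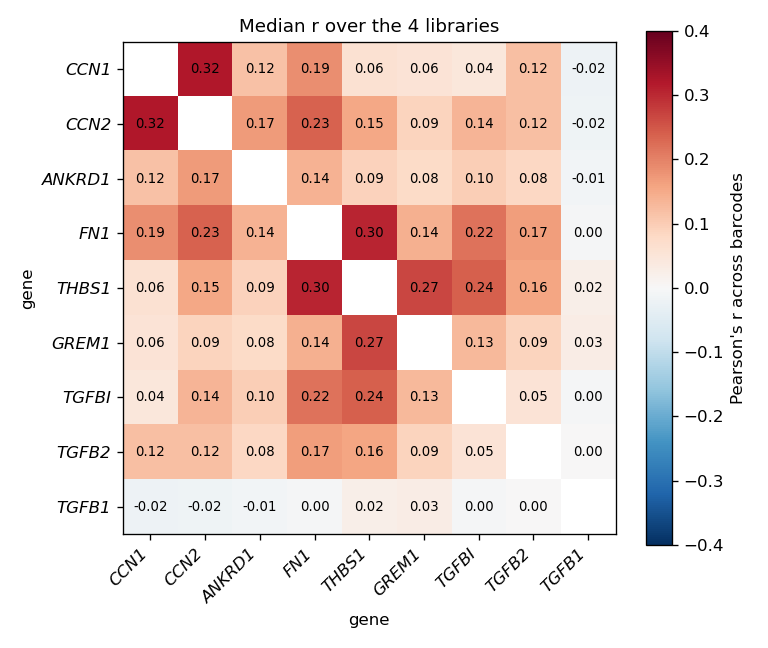
Median over the 4 libraries of Pearson's r between each pair of the 9 genes across barcodes (color scale from -0.4 to 0.4, the value printed in each cell). CCN1 with CCN2 and THBS1 with FN1, GREM1 and TGFBI have the highest values, with CCN2 and FN1 next at 0.235. The row of TGFB1 is near 0.

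The genes most like each member were taken as the 5 with the highest median r over the 4 libraries. For THBS1 these were FN1, GREM1, AKAP12 (0.261), TGFBI (0.241) and KRT7 (0.224). For GREM1 they included THBS1, G0S2 (0.258), HMOX1 (0.182) and FRMD6 (0.180). CCN1 had, among others, CCN2, the histone genes HIST1H4C (0.314) and HIST1H1B (0.309) and IER3 (0.283), and CCN2 had CCN1, FN1, both histone genes and IER3. FN1 was nearest to actin-binding and contractile genes, TAGLN (0.361), MYH9 (0.312), FLNA (0.281) and TPM4 (0.273), besides THBS1. TGFBI had KRT7 (0.279), THBS1, FN1 (0.217), TPM1 (0.197) and IGFBP3 (0.196), ANKRD1 had KRT7 (0.218), CCN2 and AKAP12 (both 0.171), HBEGF (0.159) and HIST1H4C (0.156), and TGFB2 had FN1 (0.168), TAGLN (0.167), THBS1 (0.158), MYH9 (0.148) and HBEGF (0.135). For TGFB1 no gene passed 0.051, and RPS19, ID3, MARCKS, CALM3 and UBE2S were nearest.

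Sums of cell cycle genes went with the level of most of the 9 genes. The summed UMIs of 15 G2/M genes were negatively correlated with THBS1 in each library, with r between -0.274 and -0.182. For CCN2 the range was -0.298 to -0.230, for GREM1 -0.284 to -0.165, and for TGFB1 -0.025 to -0.001. With 15 S phase genes, r was positive in each library for every member but TGFB1, which had -0.030 to -0.001. The values were highest for CCN1 and CCN2, at 0.180 to 0.251 and 0.214 to 0.261. The G2/M genes summed to 4072 CPM in the control, 3168 and 3559 at 10 and 100 mGy, and 4261 at 1 Gy. The sum was thus lower in the low-dose libraries, while 7 and 6 of the 15 genes were lower at 10 and 100 mGy, where 54.4% and 58.9% of all genes were, and the median log2 ratios of -0.21 and -0.12 were above those of all genes. Single genes differed, with MKI67, a proliferation marker, at a ratio of 0.466 and UBE2C, a ubiquitin enzyme of mitosis, at 1.65 at 10 mGy. The S phase genes summed to 1695, 1616, 1458 and 1712, with the helicase subunit MCM4 at 0.665 and the polymerase clamp PCNA at 1.49 at 10 mGy. The ribosomal protein share of a barcode was negatively correlated with FN1, with r between -0.284 and -0.243, and with CCN1, between -0.234 and -0.180. It was also negatively correlated, more weakly, with THBS1, GREM1, CCN2 and TGFB2 in each library. The part of cell cycle and ribosomal protein share in the ratios was not tested.

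Most lists of other pathway genes held more genes lower than the control at the low doses than the 54.4% and 58.9% of all genes. Several of these genes are long. The lists were not set against genes of like length, and the part of length in them was not tested. Ratios are given for 10 mGy first and 100 mGy second. Of 15 tested SMAD proteins and regulators, 14 were lower than the control at each low dose and 0 higher, with a median log2 ratio of -0.81 at 10 mGy and -0.80 at 100 mGy. SKIL, a SMAD corepressor that TGF-beta itself induces, was at 0.358 and 0.392, and SMURF2, a ubiquitin ligase for SMADs and receptors, at 0.438 and 0.448. BAMBI, a decoy receptor, was at 1.04 and 1.00, and SMAD1 at 0.831 and 0.788. Of the 6 receptors tested, 5 were lower at 10 mGy and 6 at 100 mGy, among them BMPR2 at 0.562 and 0.504 and TGFBR2, the receptor that binds TGF-beta first, at 0.587 and 0.542. ENG was at 0.731 and 0.602 and ACVR1 at 0.885 and 0.714. The 4 tested ligands and latency proteins were lower at both doses, with LTBP2 at 0.461 and 0.451, GDF11 at 0.570 at both, LTBP4 at 0.662 and 0.618 and LTBP3 at 0.791 and 0.764. Of the other 5 secreted antagonists tested, 3 were lower at 10 mGy and 5 at 100 mGy, but the median of -0.30 and -0.33 was near that of all genes. BMPER was at 0.663 and 0.708 and FSTL1 at 0.723 and 0.803, while TWSG1 was at 0.880 and 0.817 and NBL1 at 0.872 and 0.778.

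Of 16 other target genes of TGF-beta tested, 11 were lower and 2 higher at each low dose, where 54.4% and 58.9% of all genes were lower and 16.0% and 13.8% higher. COL4A1, a basement membrane collagen, was at 0.396 and 0.397. TIMP1, a secreted metalloproteinase inhibitor, was at 1.86 and 1.71, and ID3, a transcription inhibitor downstream of bone morphogenetic proteins, at 1.38 and 1.32. At 1 Gy the 16 genes had a median log2 ratio of -0.07, with 1 lower, where 1.28% of all genes were.

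At the low doses, 54.4% and 58.9% of all genes were lower and 16.0% and 13.8% higher, with medians of -0.32 and -0.38. Of 19 tested genes of the YAP and TEAD pathway, 16 were lower and 0 higher at each low dose, with medians of -0.67 and -0.73. TEAD1 was at 0.543 and 0.523 and the kinase LATS1 at 0.533 and 0.505, whereas TEAD2 was at 0.903 and 0.866 and TEAD4 at 0.975 and 0.851. Of 12 SRF and MRTF genes, 7 were lower at 10 mGy and 6 at 100 mGy, near or below the share of all genes, among them FLNA at 0.556 and 0.562 and MRTFB at 0.571 and 0.549, while MYL9 was at 1.11 and 0.999 and FHL2 at 1.15 and 1.06. Immediate early genes were tested 13 in number, with 10 lower and 2 higher at 10 mGy and 11 and 2 at 100 mGy, the share higher being near that of all genes. FOS was at 0.374 and 0.268 and FOSB at 0.327 and 0.290, whereas EGR1 was at 1.41 and 1.48 and JUND at 1.33 and 1.35. At 1 Gy 2 of the 13 were higher, FOSB at 1.29 and EGR1 at 1.32, where 1.54% of all genes were. The median log2 ratio of the 13 was 0.02 there. Other lists also held genes past the limit at 1 Gy. Among the YAP and TEAD genes 2 were lower and 1 higher, among the SRF and MRTF genes 1 was higher, and among the SMAD genes 1 was lower. Of 12 receptors of fibronectin, thrombospondin and CCN proteins, 11 were lower and 0 higher at each low dose, against the shares of all genes given above. The laminin receptor subunit ITGA6 was at 0.495 and 0.373 and ITGAV, which pairs with several beta chains to bind fibronectin and latent TGF-beta, at 0.520 and 0.570. CD47, a thrombospondin receptor, was at 0.914 and 0.921 and ITGB8 at 0.820 and 0.733. Of the other matricellular genes only 4 of 19 passed the floor. TNC was at 0.648 and 0.509 and FBLN2 at 0.683 and 0.640, while SPARC was at 1.03 and 0.860 and FBLN1 at 1.12 and 0.911.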

How the data were processed

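Libraries were prepared with a droplet kit that counts transcripts from their 3′ end, with 1 library for each of 4 doses. The UMI counts were deposited by the authors as 1 matrix per library, with raw whole-number counts per gene and barcode. The file headers name Cell Ranger 7.0.1. The submitters' processing notes name Cell Ranger, STAR and GRCh37. For the annotation and the handling of intronic reads, the choice is not given in the sources used here. Positions and exonic lengths were matched by gene ID to GENCODE 29 (GRCh38), which held 94.6% of the IDs, and upstream sequences by symbol to RefSeq (GRCh38.p14), so they do not come from the files.

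The genes and all lists were chosen with earlier results of these data known. Every deposited barcode was used, and no doublet caller was run. Counts were scaled to 10000 UMIs per barcode and averaged, and genes with a mean of at least 10 CPM over the libraries were kept. A 1.2-fold limit, as in the study but without its p-value limit, marked a gene lower or higher. With 1 library per dose there is no test. Count intervals are exact Poisson and ratio intervals exact binomial, at 95%. Exonic length was available for 99.9% of these genes. Thinning drew 5000 UMIs per barcode and left out shallower ones, 2051, 8953, 5679 and 3980 of them in the order of doses. Named besides the 9 genes were the 5 genes most correlated with each, and from each list the 2 highest and 2 lowest ratios at 10 mGy. Of the cycle and marker lists, only some of these are printed. A gene that this rule selects is not reported here. Depth was 211752280 to 285806026 UMIs per library, and the spread between libraries of 1 dose was not measured. The median UMIs per barcode were 19771 in the control, 13757 and 12417 at 10 and 100 mGy, and 14277 at 1 Gy. Barcodes of the control were thus deeper than those of the irradiated libraries, which enters the values taken without scaling or thinning. Alternatives covered the scaling, the barcodes used, the fold limit, the floor and exonic length. The computations used Python 3.11.15, numpy 2.4.6, scipy 1.17.1 and pandas 2.3.3, and were tested on simulated data.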

Additional observations from a re-analysis of the deposited data

How the results depend on the processing

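No paired analysis was possible because each dose has 1 library and no test was made. Without scaling, 9 of the 9 genes were lower at 1 Gy (97.2% of all genes), 0 were higher at 10 mGy (1.62%), and ANKRD1 at 10 mGy reversed to a log2 ratio of -0.20. Scaling by the median ratio over genes left 5 genes lower at 10 mGy (28.3%) and 5 at 100 mGy (28.6%), and CCN2 at 10 mGy reversed to 0.0018. With the mean of log2(scaled value + 1), 6 genes were lower at 10 mGy (15.8%) and 7 at 100 mGy (16.7%). In that setting 0 genes were higher at 10 mGy (3.49%) and 1 was lower at 1 Gy (0.282%). A 1.5-fold limit left 5 genes lower at 10 mGy (27.8%), 5 at 100 mGy (33.5%) and 0 higher at 10 mGy (5.45%). Relative to the exonic length decile, 0 were higher at 10 mGy (25.4%). A floor of 1 CPM gave 7055 of 12879 genes lower at 10 mGy, and a floor of 100 CPM gave 699 of 1779, against 4627 of 8507 at 10 CPM. The log2 ratio of THBS1 at 10 mGy lay between -1.86 without scaling and -0.96 relative to its length decile. The ratio to the 1 Gy library in place of the control, an alternative chosen after seeing the data, was 0.402 for THBS1 at 10 mGy and 0.443 at 100 mGy. Depth limits TGFB1 most, which had 5782 to 7689 UMIs per library, and the intervals hold no difference between libraries.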
